A study of Mus musculus with 16 samples.

Results

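Cytosolic ribosomes are built from ribosomal RNA and a fixed set of ribosomal proteins, the Rpl proteins of the large subunit and the Rps proteins of the small one. Each protein enters a ribosome in a set stoichiometry, so that their genes are usually expressed together, and most of their mRNAs begin with a tract of pyrimidines through which growth signals control their translation. The colon epithelium renews itself continuously and needs new ribosomes for each round of cell growth. A mouse colon array named 84 of them among 36711 genes, 52 of the large and 32 of the small subunit. Membership was decided by gene name: Rpl or Rps with a number and an optional a, x, l or l1 ending, plus Rplp0, Rplp1, Rplp2 and Rpsa, with pseudogene names and the Rps6k kinases left out.

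RNA came from the colon of RjOrl:SWISS pups, an outbred stock kept specific pathogen-free, at weaning at the age of 3 weeks. C-section-delivered (CSD) pups were taken by hysterectomy and fostered by mothers that had just delivered vaginally, and vaginally delivered (VD) litters were exchanged between VD mothers, so all pups of both groups grew up with a foster mother. There were 8 CSD pups, 4 from mother 3 and 4 from mother 4, each litter with 2 females and 2 males, and 8 VD pups, 5 from mother 5 (2 females, 3 males) and 3 males from mother 6. With 2 litters per delivery mode, a difference between litters and one between delivery modes are hard to tell apart. One array was hybridised per pup, 4 CSD and 4 VD arrays on each of 2 slides, and no spot was saturated. In every pup the colonocyte markers Car1, Slc26a3, Krt20, Aqp8 and Car4 were well above background, while the small intestinal markers Lct, Sis and Apoa4 were not well above it on any array. Of the other small intestinal markers, Alpi was well above background on 7 arrays and Fabp6 on all 16.

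The array held 183 probes for the 84 genes, and 173 of them were well above background on all 16 arrays. Per gene, 81 were measured on all 16 arrays. The other 3, Rpl3l, Rpl10l and Rpl39l, were not well above background on any array. There were 24 genes with a single probe, and up to 5 probes served the others. The scanner output places 7 probes, of Rpl13, Rpl36, Rps27 and Rps29, on another chromosome than the gene itself, and whether their signal includes a copy there was not tested. Of the 84 genes, 71 lay in the brightest 5% of all genes on the array. Brightness depends on the probe, so levels were not compared between genes beyond this count and the brightest gene named for some marker lists.

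RefSeq start windows (build GRCm38.p6) were at hand for 63 of the 84 genes, 75 windows in all. Only the windows with such a tract are shown, to make visible what a pyrimidine tract at the start looks like in this family, and most of the 75 windows held none by this rule. The following 10 windows of 30 bases are centred on the annotated start, 5′ to 3′ on the transcript strand, and capitals mark an unbroken run of at least 7 pyrimidines that begins with C and holds CTTTCC or CTCTTT.
Rpl13a, chr7:45128731-45128760, minus strand: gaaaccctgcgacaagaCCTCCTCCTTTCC
Rpl15, chr14:18270972-18271001, minus strand: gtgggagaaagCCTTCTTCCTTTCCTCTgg
Rpl18, chr7:45718056-45718085, plus strand: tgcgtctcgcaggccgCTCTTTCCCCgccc
Rpl35, chr2:39005117-39005146, minus strand: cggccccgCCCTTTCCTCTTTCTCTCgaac
Rpl35a, chr16:33056467-33056496, plus strand: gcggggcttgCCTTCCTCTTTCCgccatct
Rpl39l, chr16:10170213-10170242, plus strand: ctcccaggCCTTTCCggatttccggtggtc
Rps6, chr4:86857353-86857382, minus strand: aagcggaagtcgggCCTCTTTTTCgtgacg
Rps10, chr17:27635230-27635259, minus strand: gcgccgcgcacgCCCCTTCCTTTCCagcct
Rps15a, chr7:118116133-118116162, minus strand: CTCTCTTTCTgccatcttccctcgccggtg
Rps27, chr3:90213634-90213663, minus strand: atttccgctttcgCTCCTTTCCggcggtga

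Within 30 bases either side of the start, CTTTCC stood on the transcript strand in 17.3% of the 75 windows and in 2.89% of all 32851 windows of the table. For CTCTTT the shares were 14.7% and 2.29%. The letters CCGGAAG, the core of the GABP (Gabpa) and other ETS factor motifs, stood on either strand of the 300-base window in 34.7% of the family's windows and 8.86% of all. GGGCGG, the Sp1 box, stood in 58.7% and 35.7%, the YY1 letters AAGATGGC in 10.7% and 2.75%, and TATAAA in 10.7% and 13.6%. The family's windows thus held the pyrimidine letters, the ETS core, the Sp1 box and the YY1 letters at a higher share than all windows. The shares with the TATA box lay close together, and no difference in share was tested. Most of the family's windows held neither of the pyrimidine letter strings. A match is only a match of letters, and annotated starts can lie some bases from the true ones.

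The ribosomal protein genes lay close together in CSD and VD pups. None of the 84 passed an adjusted p of 0.05 between CSD and VD pups (limma, Benjamini-Hochberg over all genes), where 460 genes of all 36711 did, 1.25%. The fitted difference was above 0 for 60 genes, or 71.4%, and below 0 for 24, where 51.7% of all genes lay above 0. The median log2 difference, CSD minus VD, was 0.015 over the family and 0.0029 over all genes. It was 0.012 for the large subunit, with 36 of 52 genes above 0, and 0.026 for the small subunit, with 24 of 32 above 0. Without the adjustment, p was under 0.05 for 7 of the 84, 8.33% of them against 14.5% of all genes. Of these, 6 were higher in CSD pups, where 7.37% of all genes were, and 1 was lower, where 7.09% were. Probe by probe, 0 of the family's 183 were called against 1.74% of all 56366, and 19 had an unadjusted p under 0.05, a share that was 15.1% over all probes. The 60 to 24 split itself was not stable. It was 44 to 40 in males alone and 40 to 44 without the litter of mother 5, and it was 80 to 3 among 83 genes when the scanner's own background-corrected signal was used and arrays were scaled to their 75th percentile, a setting that also moved the median of all genes to 0.044. The same signal with quantile normalization gave 55 to 28. With only the probes well above background it was 55 to 26 among 81 genes. The family median moved too. It was 0.0085 without VD 4, -0.0014 without the litter of mother 5 and 0.076 with the 75th percentile scaling.

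**Figure D1:**
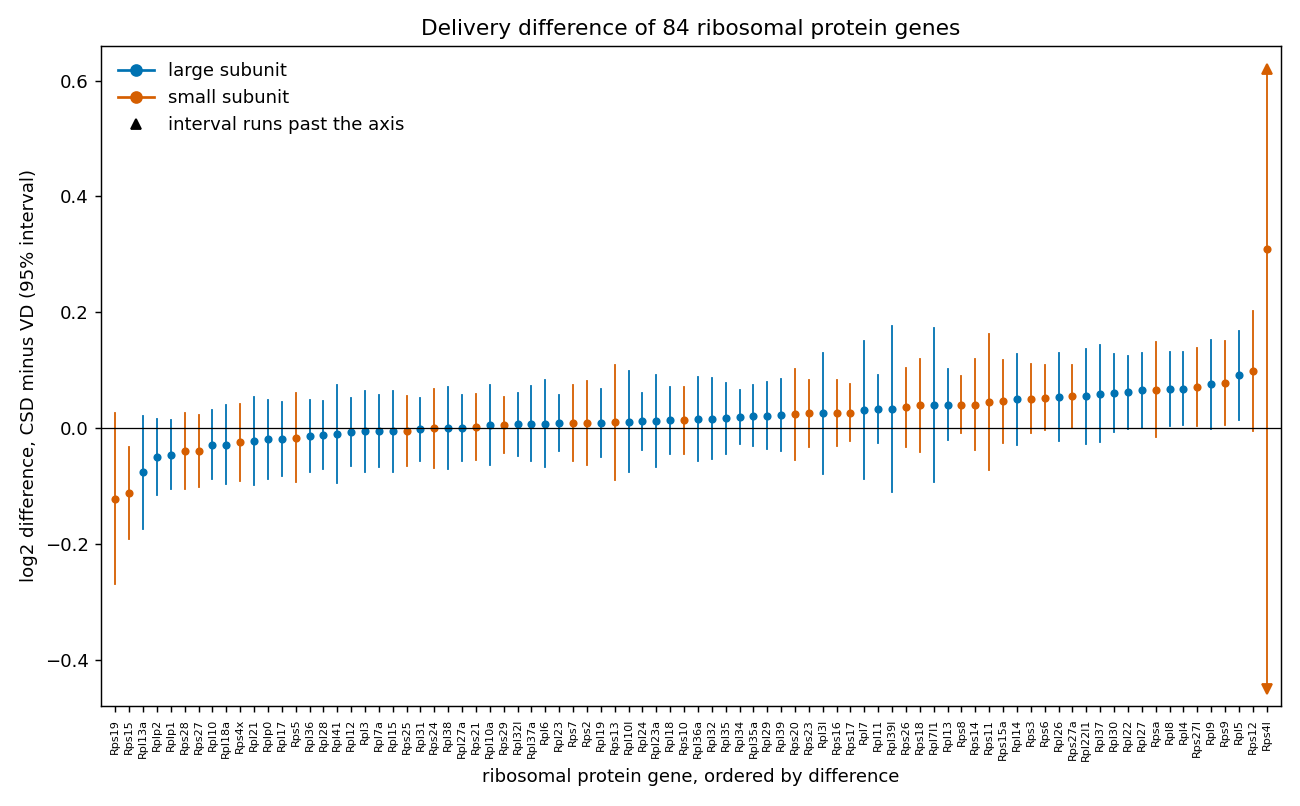
Log2 difference between CSD and VD pups (vertical axis) for each of the 84 ribosomal protein genes, ordered along the horizontal axis, with 95% intervals from the limma fit (blue, large subunit; orange, small subunit; triangles, interval beyond the axis). All but Rps4l lie between -0.12 and 0.10, and Rps4l, at 0.31, has the widest interval.

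The intervals were narrow, but the fit behind them took pups, not litters, as the replicates. They measure mostly the spread between pups of the same litters. With so few litters per delivery mode, they cannot bound the effect of delivery mode itself. For 82 of the 84 genes the 95% interval of the difference lay within a change of 1.2-fold either way, where 76.1% of all genes had one so narrow. The exceptions were Rps19, with an interval from -0.27 to 0.026, and Rps4l, with one from -0.52 to 1.14. The 82 include Rpl3l, Rpl10l and Rpl39l, which were not well above background on any array, so their intervals say nothing about expression. No gene of the family had 8 CSD values all above or all below the 8 VD values, against 0.493% of all genes. Both CSD litter means lay on one side of both VD litter means for 27 of the 84, 32.1%, a share that was 42% over all genes.

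Among the large subunit genes the smallest p-values were those of Rpl5, Rpl4 and Rpl8. Rpl5 codes for a protein that carries the smallest large-subunit rRNA into the ribosome together with Rpl11 and binds Mdm2. Its normalized log2 intensity ran from 15.41 to 15.61 in CSD pups, with a median of 15.53, and from 15.36 to 15.50 in VD pups, with a median of 15.47. The highest 6 of the 8 CSD pups stood above every VD pup, while the lowest CSD pups overlapped with the VD range. Rpl5 was named for its small limma p, so a permutation p from the same values, without adjustment, adds no separate support. The difference was 0.091 ± 0.036 (SE), or 1.07-fold (limma adjusted p = 0.244; exact two-sided permutation p = 0.0171). It shrank to 0.015 without the litter of mother 5, in which the 2 female pups held the lowest Rpl5 values, both 15.36.

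Rpl4, whose product lines the exit tunnel of the nascent chain, had a CSD range of 17.36 to 17.50 (median 17.40) and a VD range of 17.27 to 17.40 (median 17.35). The CSD minus VD difference was 0.068 ± 0.030 (SE; limma adjusted p = 0.303), and 4 CSD pups stood above all VD pups. Rpl8, a protein near the peptidyl transferase centre, ran from 16.34 to 16.48 in CSD pups and from 16.25 to 16.40 in VD pups. The difference was 0.067 ± 0.030 (limma adjusted p = 0.313). Under the other settings tried Rpl4 and Rpl8 stayed above 0 but fell as low as 0.037 and 0.025. On the other side stood Rpl13a, a protein of the large subunit that also takes part in translational silencing in inflammation. Its CSD values ran from 15.92 to 16.25 and its VD values from 16.13 to 16.33, a difference of -0.076 ± 0.046 (limma adjusted p = 0.484), and 4 CSD pups stood below every VD pup. All 4 of these were the CSD females. The difference was -0.045 without VD 4, and it turned to 0.011 in males alone, 0.027 without the litter of mother 5 and 0.015 with the scanner's own background correction and 75th percentile scaling.

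In the small subunit the gene with the smallest p of the whole family was Rps15, whose product is needed for the export of the small subunit from the nucleus. It was 15.94 to 16.16 in CSD pups, with a mean of 16.02, and 16.04 to 16.20 in VD pups, with a mean of 16.13. In 6 of the 8 CSD pups it lay below every VD pup. The difference was -0.11 ± 0.037 (SE), an unadjusted limma p of 0.00878 and an adjusted p of 0.157 (exact permutation p = 0.00684). Since Rps15 was named for its small limma p, the unadjusted permutation p from the same values adds no separate support. Under the other settings tried the difference stayed below 0, between -0.13 and -0.042. Its 2 probes gave differences of -0.089 and -0.13, both below 0.

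Rps27l is a near copy of Rps27 that is known as a target of p53. It ran from 14.18 to 14.31 in CSD pups and from 14.10 to 14.26 in VD pups. The difference was 0.072 ± 0.032 (limma adjusted p = 0.307). Under the other settings tried it stayed above 0 but fell as low as 0.022. Rps9, a small-subunit protein near the mRNA entry channel, gave 11.80 to 11.95 in CSD and 11.71 to 11.90 in VD pups, a difference of 0.078 ± 0.034 (limma adjusted p = 0.304). This value depended on the probes averaged. It was -0.0025 with RefSeq transcript probes alone and -0.025 with the brightest probe.

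Rps19, a maturation factor of the small subunit that is mutated in Diamond-Blackfan anaemia, had the lowest fitted value of the family, -0.12 ± 0.069 (limma adjusted p = 0.453). Its VD values ran from 13.66 to 14.27 with a median of 13.73, and its CSD values from 13.60 to 13.78. A single pup, VD 4, set the upper end. In that pup 1 of the 4 Rps19 probes, that of an Ensembl transcript at chr7:25672465-25672524 (mm9), read 8.71, where the other 15 pups read 6.38 to 6.68. The other 3 probes of VD 4 lay inside the range of the other pups. Without VD 4 the difference was -0.024, and with RefSeq probes alone it was 0.00043.

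**Figure D2:**
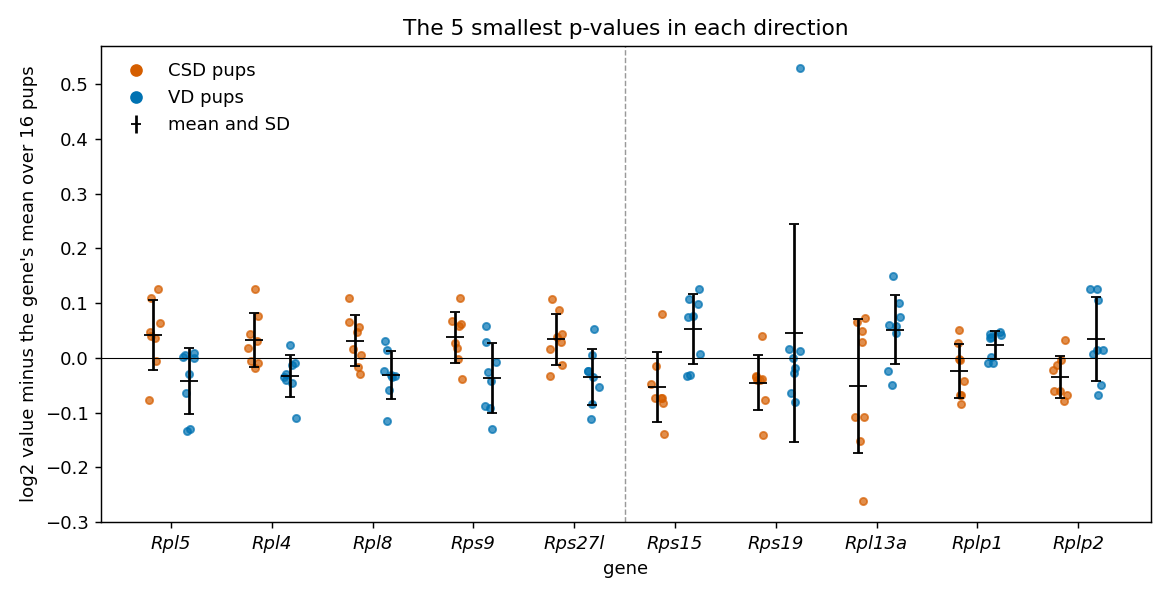
Log2 value of each pup minus the gene's mean over 16 pups (vertical axis) for the 5 genes with the smallest p-values among those higher (left of the dashed line) and among those lower in CSD pups (right), with points for CSD (orange) and VD pups (blue) and bars for mean and SD, n = 8 per group. The groups overlap for every gene, and the highest Rps19 point is VD 4.

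The stalk of the large subunit, built from Rplp0 and pairs of Rplp1 and Rplp2, recruits the translation factors. All 3 genes lay slightly below 0, and none passed the test. Rplp0 ran from 17.25 to 17.39 in CSD and 17.22 to 17.38 in VD pups, with a difference of -0.020 ± 0.032 (limma adjusted p = 0.837). Rplp1 ran from 16.74 to 16.88 and from 16.81 to 16.87, with a difference of -0.046 ± 0.028 (limma adjusted p = 0.488). Its size depended on 1 probe, at -0.12 ± 0.052, while the RefSeq probes of Rplp1 gave -0.016 ± 0.031 and -0.0037 ± 0.025. Rplp2 ran from 17.87 to 17.98 and from 17.88 to 18.08, with a difference of -0.049 ± 0.031 (limma adjusted p = 0.503). With the scanner's own background correction and scaling to the 75th percentile all 3 turned to the other side, at 0.047, 0.029 and 0.045, and Rplp0 did so too, at 0.020, with that correction and quantile normalization.

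Rps6, the main phosphorylated protein of the small subunit, ran from 15.32 to 15.41 in CSD pups and from 15.28 to 15.37 in VD pups. In 5 CSD pups it lay above every VD pup. The difference between the groups was 0.053 ± 0.026 (limma adjusted p = 0.383; exact permutation p = 0.00808). Under the other settings tried it stayed above 0 but fell as low as 0.0041. Rpsa, the laminin receptor that is also a small-subunit protein, gave 16.36 to 16.60 and 16.39 to 16.56. Its difference was 0.066 ± 0.039 (limma adjusted p = 0.465), and 0.026 at the lowest under the other settings. Rps27a, which is made as a fusion with ubiquitin, gave 11.52 to 11.64 and 11.46 to 11.58, a difference of 0.055 ± 0.026 (limma adjusted p = 0.351). This averages 2 probes, one well above background on all 16 arrays with a difference of 0.017 ± 0.028 and one on 0 arrays with 0.092 ± 0.039. The averaged value grew to 0.18 without an offset in the background correction and 0.31 with the scanner's own correction and percentile scaling, still with adjusted p-values of 0.249 and 0.321.

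Several family members have a like-named paralog with its own expression pattern, and no gene of these pairs passed the test for delivery mode. Rpl3l, the muscle paralog of Rpl3, and Rpl10l and Rpl39l, the testis paralogs of Rpl10 and Rpl39, gave no signal well above background on any of the 16 arrays, so the colon values of these 3 are bounds and their differences have no meaning as expression. Rpl3 had a difference of -0.0056 ± 0.033, Rpl10 one of -0.029 ± 0.028 and Rpl39 one of 0.023 ± 0.029. Leaving out 1 pup gave -0.021 to 0.017 for Rpl3, -0.037 to -0.016 for Rpl10 and 0.0084 to 0.036 for Rpl39. Rpl7l1, a nucleolar relative of Rpl7, was measured on all 16 arrays, with a mean of 9.06 ± 0.16 for the 8 CSD pups and 9.05 ± 0.10 for the 8 VD pups (± SD), a difference of 0.039 ± 0.063 (SE), beside 0.032 ± 0.056 for Rpl7. Rpl22l1, whose level is known to be held down by Rpl22, gave 15.06 ± 0.048 and 15.01 ± 0.091 (SD), a difference of 0.055 ± 0.039, and Rpl22 gave one of 0.061 ± 0.030. The Rpl22l1 value was 0.029 without VD 4 and turned to -0.027 without the litter of mother 5. Leaving out 1 pup moved Rpl7 between 0.0075 and 0.063 and Rpl7l1 between 0.014 and 0.062. Rps27 gave -0.039 ± 0.029, on the other side of 0 from Rps27l. The adjusted p-values of all pairs lay above 0.3 (limma).

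Between pups the family varied less than most genes. The SD over the 16 pups had a median of 0.051 over the 84 genes and 0.11 over all genes, and 0.12 over the 20589 genes well above background on all arrays. Many of the family's probes are printed on several spots, 66 of them on 10, which steadies their means. Over the 16 members with 1 probe on 1 spot the median SD was 0.070, and over all 24578 such genes 0.11. None of these sets was matched to the family for brightness, and 71 of the 84 genes lay in the brightest 5% of all genes. The part of brightness in the lower SDs was not tested. After Rps4l, at 0.78, the largest SDs were those of Rps19 (0.15), Rpl7l1 (0.13) and Rpl39l (0.13).

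**Figure D3:**
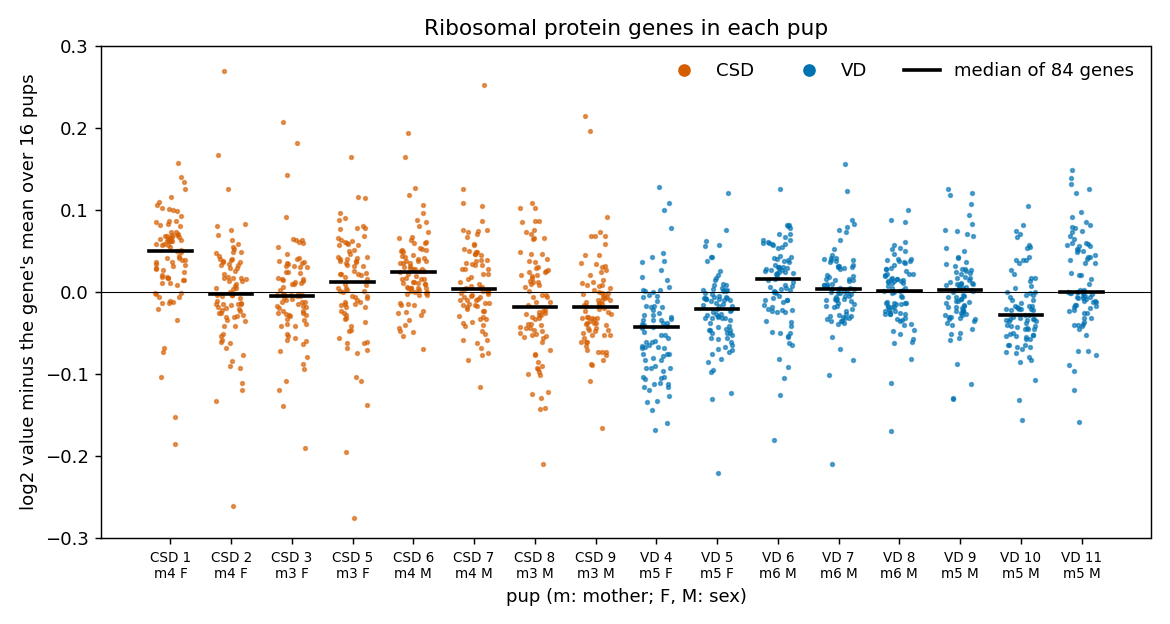
Log2 value minus the gene's own mean over 16 pups (vertical axis) for the ribosomal protein genes in each pup (horizontal axis, with mother and sex), CSD in orange and VD in blue, black bars for the median of 84 genes. Rps4l is not drawn and 1 point (Rps19 in VD 4) lies beyond the axis. The medians run from -0.043 in VD 4 to 0.051 in CSD 1.

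The genes moved a little together within a pup. In CSD 1, 68 of the 84 genes stood above their own mean over the 16 pups, and in CSD 6, 64 did. In VD 4 only 18 did, and in VD 5 and VD 10, 22 each. Other pups went the other way, with 26 in CSD 9 and 53 in VD 6. The median deviation of all genes ran from -0.016 in VD 6 to 0.0013 in CSD 3. The pup medians ran from -0.018 to 0.051 in CSD pups (median 0.0007) and from -0.043 to 0.016 in VD pups (median 0.0010). The ranges overlapped in part, with the highest pups in the CSD and the lowest in the VD group, and the group medians were close. With the scanner's own background correction and 75th percentile scaling the pup medians ran wider, from -0.078 to 0.11 in CSD pups and from -0.18, again in VD 4, to 0.056 in VD pups. The medians of all genes spread under this scaling as well, from -0.088 in VD 8 to 0.094 in CSD 8. In VD 4 the median of all genes was -0.067. The lowest medians, VD 4, VD 5 and VD 10, all belonged to mother 5. The other pups of that litter, VD 9 and VD 11, were at 0.0022 and 0.00033 in the main processing. There the 3 pups of mother 6 lay between 0.0017 and 0.016. Values within a slide were close to those of all arrays, with a family median difference of 0.015 on slide 1 and 0.017 on slide 2.

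Rps4l stood apart from the rest of the family. It is a relative of Rps4x that the RefSeq gene table lists as a transcribed pseudogene on chromosome 6, inside the span of Tmtc1. The array reads it with 1 probe on 1 spot, well above background on all 16 arrays, at chr6:148304018-148304077 (mm9, plus strand). Its sequence is shown because the largest differences of the family rest on it alone.
Rps4l probe: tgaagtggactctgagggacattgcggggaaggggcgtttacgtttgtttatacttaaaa
The longest stretch it shares with any Rps4x probe of the array, on either strand, is 6 bases, and with any other probe 14 bases, so the probes of Rps4l and Rps4x share little sequence.

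Rps4l values went with the litter. In the litter of mother 3 the 4 pups read 10.02, 10.03, 10.05 and 10.28. In that of mother 4 they read 10.98, 11.46, 12.06 and 12.13. The litters did not overlap, and mother 3 pups lay below those of mother 4, with a log2 difference of -1.56 ± 0.30 (SE; unadjusted limma p = 0.000142, adjusted p = 0.0792; exact permutation p = 0.0286, the smallest that 4 against 4 pups allow). The adjusted p misses the threshold, and 28 genes of the array had a larger difference between the same litters. Every gene without overlap between these litters, 4.06% of all genes, reaches the same permutation p. In VD pups, mother 5 pups read 10.14, 10.66, 11.10, 11.13 and 11.47 and mother 6 pups 9.40, 10.44 and 10.46, which overlap, with a difference of 0.92 ± 0.32 (limma adjusted p = 0.248). Over both litters the CSD mean was 10.88 ± 0.91 and the VD mean 10.60 ± 0.65 (± SD, n = 8 each), a difference of 0.31 ± 0.39 (limma adjusted p = 0.784) that became 1.12 without the litter of mother 3, -0.55 without that of mother 4, 0.97 without that of mother 5 and 0.0063 without that of mother 6.

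Rps4x, the X-linked gene of the working small-subunit protein, showed none of this. It read 13.05 ± 0.047 (SD) in CSD and 13.07 ± 0.047 in VD pups, and its litters differed by -0.025 ± 0.043 between mothers 3 and 4 and by -0.015 ± 0.047 between mothers 5 and 6. Tmtc1 differed by -0.11 ± 0.11 and -0.23 ± 0.12 in the same contrasts (limma adjusted p = 0.877 and 0.512). Of all genes, 99.1% had a smaller SD over the 16 pups than Rps4l.

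**Figure D4:**
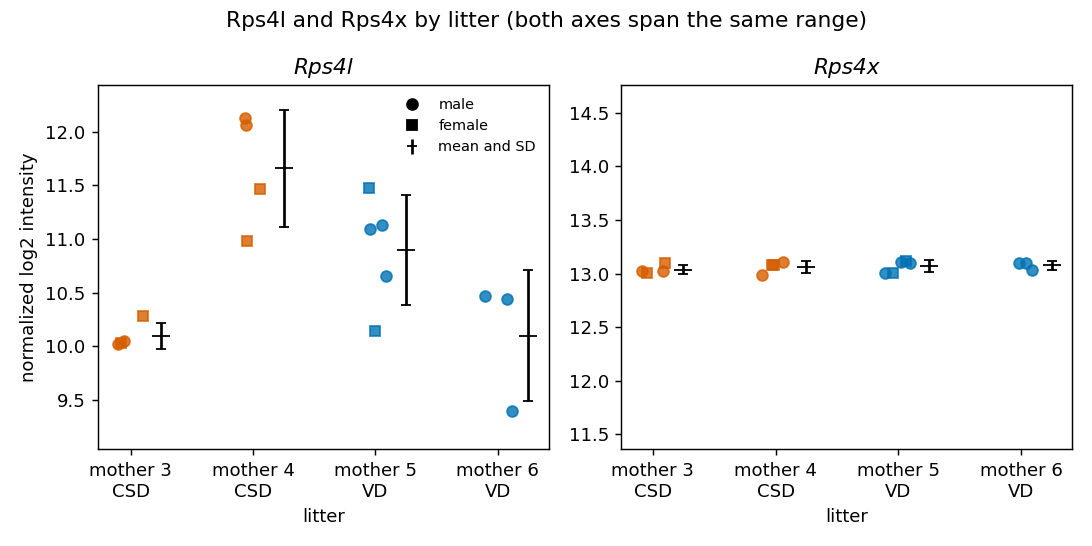
Normalized log2 intensity (vertical axes, spanning the same range) of Rps4l and Rps4x in the 16 pups by litter (CSD orange, VD blue), with circles for males, squares for females and bars for mean and SD. The pups of mother 3 lie between 10.02 and 10.28 for Rps4l and those of mother 4 between 10.98 and 12.13, while Rps4x is level.

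No ribosomal protein gene differed between the sexes, where 22 genes of the array did, 0.0599%. An unadjusted p under 0.05 was found for 3 of the 84, all lower in females and 0 higher, against 6.45% of all genes (3.56% higher, 2.89% lower). Their fitted values lay above 0 for 32 of the 84, and for 48.2% of all genes. The smallest p-values belonged to Rplp2, at -0.078 ± 0.031 female minus male (limma adjusted p = 0.729), Rpl13a, at -0.11 ± 0.046 (limma adjusted p = 0.755), and Rpl7l1, at -0.14 ± 0.063 (limma adjusted p = 0.767). The 4 X-linked members were level between females and males, with -0.0016 ± 0.028 for Rpl10, -0.032 ± 0.029 for Rpl39, -0.033 ± 0.035 for Rpl36a and 0.012 ± 0.031 for Rps4x.

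The test of whether the delivery difference itself differed by sex called none of the 84 either, where it called 0.00272% of all genes, and it rests on 2 VD females from a single litter. Its estimates leaned to one side, above 0 for 67 of the 84 against 53.6% of all genes. An unadjusted p under 0.05 was found for 7 genes, 6 above 0 and 1 below, where 4.72% of all genes had one, 2.68% above and 2.03% below. The family medians of the 2 VD females were -0.043 and -0.021, with a mean of -0.032 beside -0.00068 for the VD males. Those of the CSD females had a mean of 0.014, led by CSD 1 at 0.051, beside -0.0019 for the CSD males. The smallest p was that of Rpl13a, at -0.25 ± 0.072 (limma adjusted p = 0.981). Its 4 CSD females read 15.92 to 16.07, below the 4 CSD males at 16.21 to 16.25, and the 2 VD females read 16.24 and 16.28, inside the VD male range of 16.13 to 16.33. Rps18, in the head of the small subunit, gave 0.18 ± 0.063 and Rpl5 0.16 ± 0.064, both with an adjusted p of 0.981 (limma). For both genes the 2 VD females lay below all other females.

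Between the litters of one delivery mode no ribosomal protein gene passed the test. From mother 3 to mother 4 the shares were 0 of 84 against 0.0872% of all genes, and 6 of the 84 (7.14%) did not overlap between the 2 litters, against 4.06% of all genes. The pups of mother 3 had the higher fitted value for 21 of the 84, and for 51.2% of all genes. An unadjusted p under 0.05 was found for 1 higher and 4 lower genes, 5.95% in all, against 7.68% of all genes, 4.06% higher and 3.62% lower. Beside Rps4l, the smallest p-values were those of Rpl23a, a protein at the tunnel exit, at -0.13 ± 0.037 (limma adjusted p = 0.298), and Rplp1, at 0.084 ± 0.032 (limma adjusted p = 0.529). Rpl23a read 15.05 to 15.13 in pups of mother 3 and 15.17 to 15.32 in those of mother 4, and Rplp1 read 16.82 to 16.88 and 16.74 to 16.78. From mother 5 to mother 6, 0.874% of all genes were called and none of the family, and 10 of the 84 (11.9%) did not overlap, against 8.12% of all genes. Here 1 higher and 4 lower genes had an unadjusted p under 0.05, 5.95% against 11.5% of all genes, 5.36% higher and 6.16% lower, and 32 of the 84 lay above 0, against 52% of all. Of the 10 genes, 8 were lower in the pups of mother 5. Rpl26, also at the tunnel exit, gave -0.12 ± 0.043 (limma adjusted p = 0.267), with 12.50 to 12.63 in mother 5 pups and 12.65 to 12.71 in mother 6 pups. Rps26, near the mRNA exit, gave -0.10 ± 0.039 (limma adjusted p = 0.302), with 16.64 to 16.75 and 16.74 to 16.81.

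The genes that make, modify or use ribosomes were read beside the family in the CSD minus VD comparison, by lists of known function. Of 40 ribosome biogenesis factors, 31 lay above 0, with a median of 0.072, and 3 were called, where 51.7% of all genes lay above 0 with a median of 0.0029 and 1.25% were called. Polr1d, a subunit shared by RNA polymerases I and III, rose by 0.31 ± 0.056 (adjusted p = 0.0185) and Sbds, which frees the new large subunit for joining, by 0.21 ± 0.037 (adjusted p = 0.0125), while Rrp1, a nucleolar processing factor, fell by 0.16 ± 0.033 (adjusted p = 0.0336). Of 18 regulators of ribosomal protein synthesis, only Myc, the transcription factor that drives ribosome production, was called, from 8.21 ± 0.083 in VD to 8.54 ± 0.075 in CSD pups (SD, n = 8), a rise of 0.33 ± 0.044 (adjusted p = 0.00254). Of 37 initiation factors 1 was called, Eif5b, which joins the subunits, with a rise of 0.18 ± 0.037 (adjusted p = 0.0262), and of 12 elongation and termination factors none was (smallest p, Gspt1 at 0.10 ± 0.030 and Eef1g at 0.096 ± 0.034). These adjusted p-values are limma's, over all genes. The genes called in these lists and in those below were not followed through the other settings. With fewer values in the fit, 0 genes of the whole array were called in males alone, on slide 2 alone and with litter means, and 11 on slide 1 alone.

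Of 22 aminoacyl-tRNA synthetases, Eprs rose by 0.26 ± 0.057 (limma adjusted p = 0.0396) and Wars fell by 0.21 ± 0.042 (limma adjusted p = 0.0254), with a list median of 0.017. Of 75 mitochondrial ribosomal protein genes, which serve the separate ribosomes of mitochondria, 54 lay above 0 (51.7% of all genes did), with a median of 0.041, and 3 rose (1.25% of all genes were called in either direction), Mrpl21 by 0.16 ± 0.034, Mrpl50 by 0.21 ± 0.047 and Mrpl9 by 0.16 ± 0.036 (limma adjusted p = 0.0332, 0.0392 and 0.0448). Of 14 other mRNAs with a pyrimidine tract none was called, with a median of 0.045 and the smallest p-values for Nap1l1, at 0.15 ± 0.045, and Eef1g. Cytosolic ribosomal proteins that carry other names gave 0 calls among 5 measured, with the smallest p-values for Rpl36al at 0.12 ± 0.044 (limma adjusted p = 0.181) and Fau at -0.085 ± 0.034 (limma adjusted p = 0.25).

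**Figure D5:**
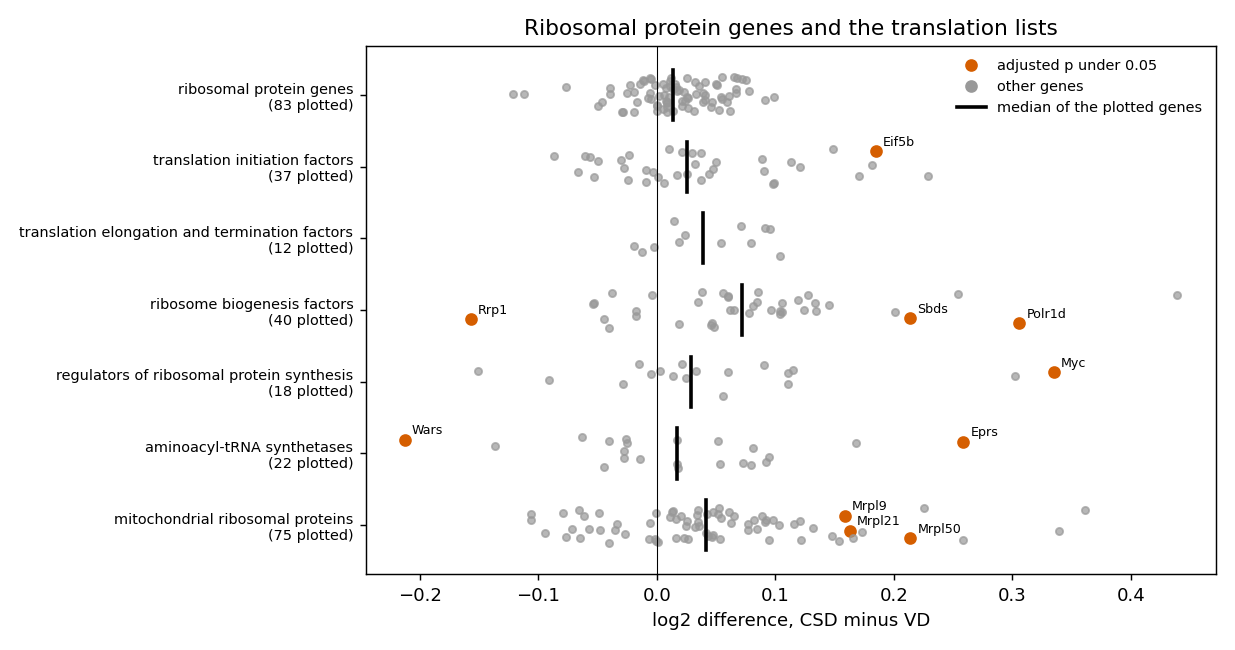
Log2 difference, CSD minus VD (horizontal axis), of each gene of 7 lists (rows), with black bars for the median of the plotted genes and named orange points for genes with an adjusted p under 0.05. Rps4l is not drawn. The cytosolic ribosomal protein genes, with no orange point, lie within -0.12 and 0.10, and the other lists hold 0 to 3 called genes each.

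Whole colon was measured, so fewer cells of a type and less RNA per cell cannot be told apart. Of the marker lists, the 5 B cell markers (brightest Cd79b) all lay below 0 in CSD pups, with a median of -0.48, and their summed intensity, in kilounits, had a median of 2.88 in CSD pups (1.59 to 9.12) and 5.07 in VD pups (3.08 to 7.68). The 5 colonocyte markers (brightest Aqp8) all lay above 0, with a median of 0.24 and sums of 148 to 227 kilounits in CSD and 146 to 206 in VD pups. The 5 goblet cell markers (brightest Clca1) did too, with a median of 0.18, led by Fcgbp at 0.59 ± 0.15 (limma adjusted p = 0.0722). The plasma cell (brightest Jchain), T cell (Cd3d) and macrophage (Csf1r) lists had medians of -0.44, -0.24 and -0.19, with 3 of 4, 5 of 5 and 4 of 4 genes below 0. Their summed intensity ran from 11.9 to 50.4, 1.06 to 1.76 and 3.21 to 4.88 kilounits in CSD pups and from 30.2 to 77.6, 1.34 to 3.42 and 4.12 to 5.35 in VD pups. The 5 endothelium and the 5 proliferation markers all lay below 0 too, with medians of -0.10 and -0.054, as did 4 of 5 smooth muscle and 3 of 5 fibroblast markers, with medians of -0.10 and -0.070. The colon position, crypt stem cell and enteric neuron and glia lists had medians of 0.028, 0.0089 and 0.030. The crypt stem cell median is the value of Olfm4, which was not well above background on any array. No marker of any list passed the test. The part of these cell types in the ribosomal protein values was not tested.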

How the data were processed

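Colon RNA of 16 pups was read on 1-colour Agilent arrays. Deposited by the authors were raw scanner files with intensity values per spot, and a gene matrix of log2 values that they background-corrected, quantile normalized, filtered and averaged by gene. Per the labels their analysis used limma 3.38. The matrix served as an alternative.

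Here normexp correction (offset 50) of mean against background intensity was applied to 62976 spots with limma 3.58.1 in R 4.3.3. Control and outlier spots were left out, log2 values quantile normalized, and probes above the 5% quantile in at least 4 arrays kept (56366 of 56605) and averaged by gene name. Delivery mode and sex were fixed effects and the mother a random effect (consensus correlation 0.015), as in the methods. Litters were compared with litter and sex as fixed effects. Genes were called at an adjusted p under 0.05. Exact permutation tests ran over 12870 assignments and take no account of litter. Pups, not litters, are the replicates, so p-values and intervals measure mostly the spread between pups of the same litters.

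Named were the 5 smallest p-values in each direction, the stalk genes, Rpsa, Rps6, Rps27a, the paralog pairs, the 3 smallest p-values of each other contrast, and called or leading genes of the other lists. The X-linked members, Tmtc1 and the rest of the non-overlapping genes were picked after their values were seen. Gene names alone decided membership, but the family itself, its members and the lists were chosen with earlier results of these data known. Fits were tested on simulated data. Without a litter effect there, the fit with the mother as a random effect gave small unadjusted p-values for unchanged genes more often than it should, and the fit without the mother did not. The consensus correlation was below 0 there and above 0 in the pups. In the pups the fit without the mother called more genes, 587 against 460. Whether the p-values printed here are too small, or the intervals too narrow, was not tested. The number of arrays limits the precision.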

Additional observations from a re-analysis of the deposited data

Results flagged for a closer look

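Among 64 groups of 8 pups, which were the named genes and the median of the ribosomal protein genes in CSD and in VD pups, 2 held a pup whose gap to the next was large for the range of its group. Chance gives about 1 such group in 20. The Rps19 value of VD 4 was 14.27, where the next VD pup read 13.76. The Rpl7 value of VD 9, a large-subunit gene, was 14.46, where the next VD pup read 14.35.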

How the results depend on the processing

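No ribosomal protein gene was called between CSD and VD pups under any of the 40 alternatives. Over the whole array these alternatives called 0 to 992 genes at an adjusted p under 0.05, and 1126 at one under 0.1. The family's median difference moved beyond the spread between pups under 1 of them, the scanner's own background correction with scaling to the 75th percentile, where it was 0.0758. Leaving out 1 pup at a time gave medians of 0.00853 to 0.0226, and leaving out a litter -0.00145 to 0.031. Between mothers 3 and 4, 1 gene, Rps4l, was called at an adjusted p under 0.1, and leaving out 1 pup gave 0 to 1 calls, with Rps4l called without VD 4 (adjusted p = 0.0441) and without VD 6 (adjusted p = 0.0463). For the interaction, no gene of the family was called in the fits without 1 pup that kept both VD females. The fit without VD 5, in which Rps19 stood out, left VD 4 as the only VD female and cannot decide. VD 4 is the pup with the outlying Rps19 probe. The cause was not tested. Of 1234 CSD minus VD values of 31 named genes under the alternatives, 55 had the opposite sign and 0 passed the threshold. With the replicate number as a block in place of the mother the median was 0.0143 and 0 genes of the family were called, against 697 of all genes. Deviations of same-numbered pups correlated at -0.049 to 0.22. Differently numbered pups were not set beside them, so this cannot decide whether the numbers pair the pups. Fits without a pup or litter kept the consensus correlation of all pups. With 2 litters per delivery mode, litter means called 0 genes.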

Other observations

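The genes around Rps4l were looked up after its litter values were seen. From mother 3 to mother 4, Ccdc91 differed by -0.12 ± 0.083 (SE; limma adjusted p = 0.798) and Ergic2, which works in transport between the endoplasmic reticulum and the Golgi, by -0.0022 ± 0.047 (limma adjusted p = 0.997), beside -1.56 for Rps4l.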
